A study of Mus musculus with 16 samples.

Results

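Trp53, the gene of the transcription factor p53, and its partner genes Mdm2 and Mdm4 were examined isoform by isoform in cultured mouse cortical neurons after oxygen-glucose deprivation (OGD), an in vitro model of ischemia. All rows of the isoform expression table that carried one of these 3 gene symbols were taken, each by itself and summed per symbol. They made up 29 of the 135202 isoforms in the table, 6 of Trp53, 9 of Mdm2 and 14 of Mdm4, and 3 of 53768 genes. The cultures came from the cortex of wild-type (genotype wt) mouse fetuses at embryonic day 15, and 4 cultures made up each of 4 groups. At day in vitro 8 they received vehicle (VEH, given as untreated in the sample labels) or 10 µM tianeptine (TIA), an atypical antidepressant. After 24 h they went through a sham procedure (CONTROL-VEH, CONTROL-TIA) or 3 h of OGD (OGD-VEH, OGD-TIA), and RNA was taken after 6 h of reoxygenation. Cultures are numbered 1 to 4 in CONTROL-VEH, 5 to 8 in CONTROL-TIA, 9 to 12 in OGD-VEH and 13 to 16 in OGD-TIA. The 4 cultures of a group are stated to be biological replicates. Which of them shared a dissection or plating is not given in the sources used here.

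p53 is kept scarce in unstressed cells because MDM2, a ubiquitin ligase, binds it and marks it for degradation, while MDM4, a relative of MDM2 with little ligase activity of its own, binds p53 and blocks its activity as a transcription factor. The Mdm2 gene is itself a target of p53: besides the promoter before its first exon it has an internal promoter at the end of intron 1 that p53 activates, which closes a negative feedback loop. In neurons p53 takes part in death after DNA damage, hypoxia and excitotoxic stress, and loss of Mdm2 or Mdm4 is known to unleash it in the developing brain.

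Values are FPKM (fragments per kilobase of transcript relative to sequencing depth, scaled between cultures), so levels can be compared between isoforms and genes per length. With about 18000000 to 23000000 aligned reads per culture according to the labels, 1 read on a transcript of 1 kilobase was worth about 0.0435 to 0.0556 FPKM. The cultures held other cells beside neurons. The summed level of 12 neuronal markers was 3027 to 3626 FPKM in CONTROL-VEH, 3089 to 3261 in CONTROL-TIA, 1317 to 2720 in OGD-VEH and 1823 to 3034 in OGD-TIA. That of 8 astrocyte markers was 753 to 1614 FPKM, 657 to 874, 1011 to 2532 and 752 to 1934 in the same order, and that of 6 markers of progenitors or dividing cells 106 to 163, 104 to 119.6, 148 to 427 and 126 to 309. The sums for 8 markers of the oligodendrocyte lineage were 177 to 213, 159 to 194, 244 to 676 and 225 to 438 FPKM, and those for 5 fibroblast markers 45.3 to 59.9, 39.5 to 54.8, 51.8 to 224 and 52.4 to 138. The higher fibroblast sum lay with Pdgfra, also a gene of the oligodendrocyte lineage list (mean 41.5 FPKM in CONTROL-VEH and 134 in OGD-VEH), while Dcn (11.8 and 5.56), Col1a1 (0.629 and 0.267) and Lum (0.521 and 0.146 FPKM) had lower means after OGD and Col1a2 was low in both (0.064 and 0.106 FPKM). Microglia (2 of 8 markers at a mean of at least 0.5 FPKM) and endothelial or mural cells (1 of 6) were near background. No marker list had a member at 0 in every culture. Of the OGD cultures 2 stood apart: OGD-VEH 12 and OGD-TIA 16 had the lowest neuronal sums of their groups and correlated least with the control cultures over all genes (Pearson r 0.895 to 0.910 and 0.932 to 0.941), whereas OGD-VEH 9 was nearest to the controls in its group (r 0.953 to 0.962). Within each group, the last-numbered culture had the highest astrocyte sum. It was 1614 FPKM in CONTROL-VEH 4, 874 in CONTROL-TIA 8, 2532 in OGD-VEH 12 and 1934 in OGD-TIA 16. The neuronal sum was the highest of its group in CONTROL-VEH 4 and CONTROL-TIA 8. OGD-VEH 12 and OGD-TIA 16 correlated with each other at r 0.961, against at most 0.954 within their own groups. OGD-TIA 16 correlated more closely still with OGD-VEH 10 (r 0.965) and OGD-VEH 11 (r 0.964). Whether the last-numbered cultures shared a preparation is not given and was not tested. In RNA from whole cultures, fewer cells of a type and less RNA per cell cannot be told apart.

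The structures of the isoforms decide what their values can tell. Trp53 lies on the plus strand at chr11:69580359-69591873 (ENSMUSG00000059552; GRCm38, as are all positions here unless another build is named). Mdm2 lies on the minus strand at chr10:117688875-117710758 (ENSMUSG00000020184) and Mdm4 on the minus strand at chr1:132959484-133030561 (ENSMUSG00000054387). Of the 29 isoforms, 11 are annotated as protein-coding (4 of Trp53, 2 of Mdm2 and 5 of Mdm4). A mean of at least 0.5 FPKM over the 16 cultures was reached by 20 (6, 8 and 6). Mdm2-203 was listed at 0 in all 16 cultures, and the other 8 below that level were isoforms of Mdm4. The reads were 50 bases long, and many isoforms have few stretches of 50 bases that no other isoform of the gene holds, so their levels are estimates that share reads with their neighbours.

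**Figure D1:**
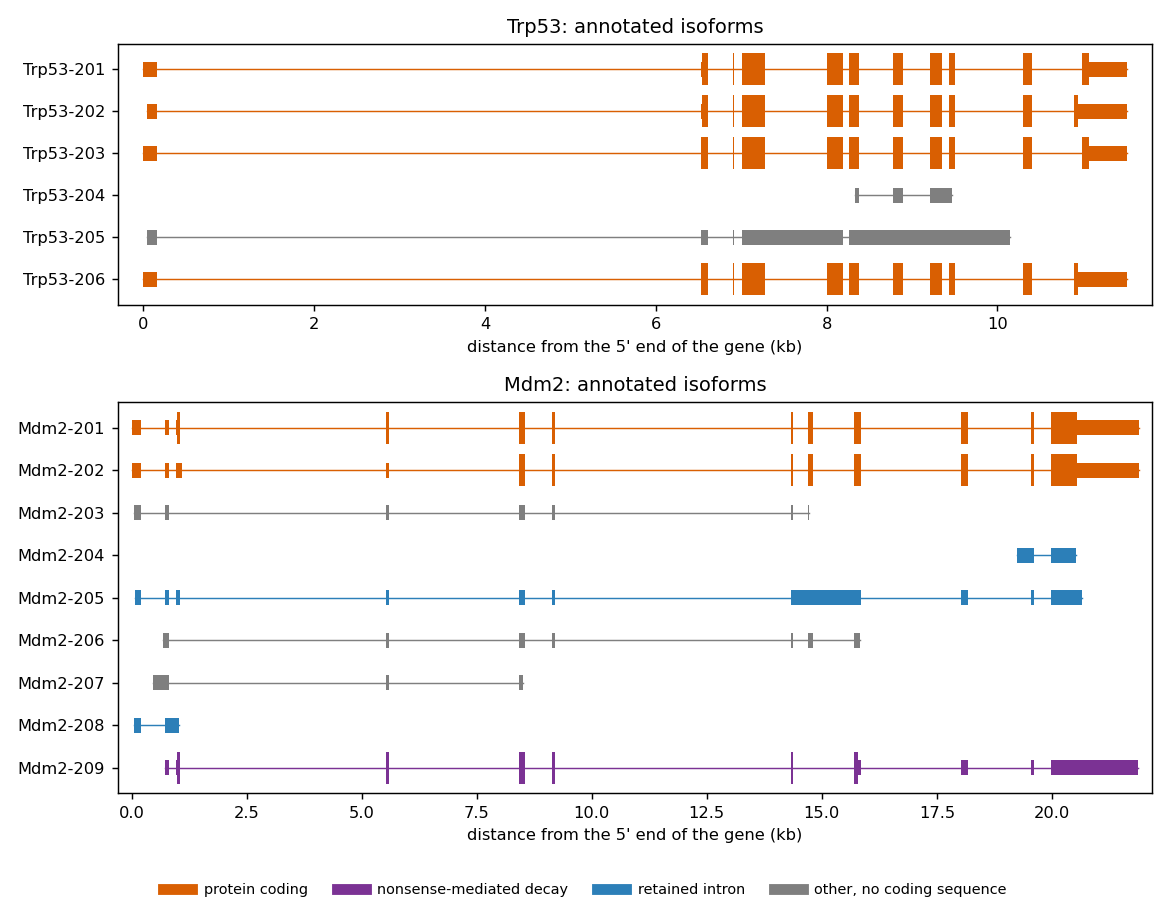
Exon maps of the isoforms of Trp53 and Mdm2, drawn 5′ to 3′ with the distance from the 5′ end of the gene in kilobases on the x axis; boxes are exons, taller boxes coding parts, lines introns, and colours the annotated type. Trp53-204 covers 3 exons in the middle of the gene, and Mdm2-206, Mdm2-207 and Mdm2-209 start downstream of exon 1.

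The 4 coding Trp53 isoforms share their body and differ at the ends. Trp53-201 (1772 bases, 387 codons) and Trp53-203 (1771 bases, 390 codons) end in the regular C-terminus. Trp53-202 (1822 bases, 378 codons) and Trp53-206 (1867 bases, 381 codons) are the alternatively spliced form, in which the last exon starts 96 bases earlier and another C-terminus follows. The coding ends of a member of each pair show how early they part, with the coding bases of the last exon, stop codon included, in capitals and the 30 bases before the junction in lower case; the first spans chr11:69590733-69591431 and the second chr11:69590733-69591308, both on the plus strand and without the intron between.
Trp53-203: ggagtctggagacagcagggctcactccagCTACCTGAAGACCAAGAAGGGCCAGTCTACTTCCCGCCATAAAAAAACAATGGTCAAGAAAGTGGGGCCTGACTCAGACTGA
Trp53-206: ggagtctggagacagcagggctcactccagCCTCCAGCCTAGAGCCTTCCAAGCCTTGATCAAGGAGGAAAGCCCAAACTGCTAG
None of these 4 isoforms has a 50-base stretch of its own. Taken as pairs, 46 of 1723 stretches (2.67%) belong to the regular form alone and 142 of 1819 (7.81%) to the alternatively spliced form alone, so the sum of a pair rests on more reads than the split within it.

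The other 2 Trp53 isoforms carry no annotated reading frame. Trp53-205 (3275 bases) has 5 exons, and 69.8% of its stretches are its own. Trp53-204 (403 bases, 3 exons) lies wholly inside the gene and keeps a short intron of 79 bases, shown here in capitals between the exon bases on either side (chr11:69589690-69589808, plus strand), because the level of the whole gene turned on this isoform.
Trp53-204: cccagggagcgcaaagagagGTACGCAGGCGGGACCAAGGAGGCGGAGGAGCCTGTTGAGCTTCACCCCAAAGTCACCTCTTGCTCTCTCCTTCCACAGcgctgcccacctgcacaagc
Of its 354 stretches, 242 also lie in a coding isoform and the other 112 are shared with Trp53-205, which leaves none of its own. The pseudogene Trp53-ps, which shares 154 stretches with Trp53-201, was listed at 0 in every culture.

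Mdm2-201 (3099 bases, 489 codons) and Mdm2-202 (3145 bases, 440 codons) start in exon 1 and are the isoforms annotated as coding for MDM2. The reading frame of Mdm2-202 begins further downstream, so its product lacks the N-terminal end of that of Mdm2-201. Mdm2-209 (2769 bases) starts in exon 2, lacks an exon of 97 bases and is annotated as a target of nonsense-mediated decay, the pathway that removes transcripts with an early stop, since its reading frame ends after 162 codons. The exon that it lacks is given in capitals within Mdm2-201 (chr10:117695049-117696400, minus strand, introns left out), because the coding level and the level of Mdm2-209 depend on reads over it.
Mdm2-201: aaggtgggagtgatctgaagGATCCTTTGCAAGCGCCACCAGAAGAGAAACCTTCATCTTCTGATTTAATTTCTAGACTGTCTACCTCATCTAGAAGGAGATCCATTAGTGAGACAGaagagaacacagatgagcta
Only 47 of the stretches of Mdm2-209 and none of those of Mdm2-201 are their own.

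Mdm2-206 (683 bases) and Mdm2-207 (499 bases) start inside intron 1 and carry no annotated reading frame, so the isoforms that start in exon 1 (Mdm2-201, 202, 203, 205 and 208) can be set beside those that start in intron 1 or exon 2 (206, 207 and 209). Mdm2-204 starts further downstream. The end of intron 1 as it stands in Mdm2-207 (chr10:117710029-117710292, minus strand, 264 bases up to exon 2) is printed because it covers the region of the internal promoter.
Mdm2 intron 1: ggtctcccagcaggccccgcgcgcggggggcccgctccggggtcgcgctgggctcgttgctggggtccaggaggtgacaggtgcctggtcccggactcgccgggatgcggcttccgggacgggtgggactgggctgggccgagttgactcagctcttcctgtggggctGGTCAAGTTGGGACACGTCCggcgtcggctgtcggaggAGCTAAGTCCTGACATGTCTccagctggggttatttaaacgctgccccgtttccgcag
The p53 half-site (RRRCWWGYYY, on either strand) did not occur there without mismatch. A search made after that result, for pairs of adjacent half-sites with at most 3 mismatches in 20 positions, found 2 pairs, in capitals, which begin at chr10:117710124 and chr10:117710086 on the minus strand and end 76 and 38 bases before exon 2. Each has 3 mismatches. The 5′ end of Mdm2-206 (117710078) lies inside the second pair. Among 32851 RefSeq promoter windows of GRCm38.p6 cut to the same 264 bases, 5.54% held at least 1 such pair and 0.359% held at least 2; an exact half-site occurred in 7.45%. In the windows of 300 bases around the RefSeq starts, of which 8.36% held an exact half-site and 6.29% a pair, the Trp53 window held 1 exact half-site and 1 pair, the Mdm2 window 1 exact half-site and no pair, and the 2 Mdm4 windows no exact half-site, with a pair in 1 of them. A match is a description of letters, not of binding.

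Mdm4-210 (7105 bases, 489 codons) is the long coding isoform, with 52.2% of its stretches its own. Mdm4-214 lacks an exon of 68 bases, shown in capitals within Mdm4-210 (chr1:133003871-133009156, minus strand, introns left out). Skipping of this exon ends the frame after 128 codons and is known as a switch that lowers MDM4 protein.
Mdm4-210: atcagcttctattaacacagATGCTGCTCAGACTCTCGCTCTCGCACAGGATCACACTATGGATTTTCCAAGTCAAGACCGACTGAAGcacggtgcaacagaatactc
Mdm4-211 (762 bases), Mdm4-209 (612 bases) and Mdm4-204 (496 bases) are short isoforms with retained introns, and Mdm4-213 (467 bases) is a short coding fragment.

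Trp53 expression was higher after OGD. Summed over isoforms, the 4 CONTROL-VEH cultures had 55.9, 19.5, 21.6 and 63.1 FPKM, and the 4 OGD-VEH cultures 108, 166, 134 and 159.6 FPKM, with no overlap. In the TIA arm the CONTROL-TIA cultures had 57.0, 65.3, 31.7 and 52.1 FPKM and the OGD-TIA cultures 94.0, 92.4, 83.4 and 119.6 FPKM, again without overlap. Of all genes tested, 2089 of 16372 were likewise fully apart with OGD above in the VEH arm, and 1546 of 16267 in the TIA arm. Relative to their mean, the control cultures differed among themselves more than the OGD cultures did: the SD was 22.7 on a mean of 40.0 FPKM in CONTROL-VEH and 26.3 on 142 in OGD-VEH, and 14.3 on 51.5 and 15.6 on 97.4 FPKM in the TIA arm. Most of the spread of the controls lay in a single isoform.

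That isoform was Trp53-204. Its level in CONTROL-VEH was 35.8, 0.770, 0.0250 and 43.3 FPKM, so that it made up 64.1% of the Trp53 sum in culture 1, 68.5% in culture 4, but 3.95% in culture 2 and 0.116% in culture 3. In the other 12 cultures it took 34.2 to 72.2% of the sum: it had 33.8, 47.1, 10.9 and 33.4 FPKM in CONTROL-TIA, 76.2, 119, 86.0 and 98.2 in OGD-VEH and 61.5, 61.7, 51.6 and 75.9 in OGD-TIA. In both arms each OGD culture lay above each control culture. The difference was 4.70 ± 1.83 on the log2 scale (± SE, limma, padj = 0.224) in the VEH arm and 1.17 ± 0.43 (padj = 0.434) in the TIA arm, and neither passed.

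The coding isoforms were far steadier. Their sum was 18.1, 16.8, 20.2 and 18.4 FPKM in CONTROL-VEH and 21.96, 16.5, 19.8 and 17.3 FPKM in CONTROL-TIA, without a drop in cultures 2 and 3. It was 30.6, 43.4, 45.4 and 58.6 FPKM in OGD-VEH and 30.5, 28.9, 29.6 and 41.5 FPKM in OGD-TIA. The means rose from 18.4 ± 1.40 to 44.5 ± 11.4 FPKM (± SD, n = 4), a ratio of 2.42, in the VEH arm (log2 fold change 1.24, limma over coding sums of all genes, padj = 0.0325), and stood at 18.9 ± 2.49 and 32.7 ± 5.97 FPKM, a ratio of 1.73, in the TIA arm (0.78, padj = 0.0868). A test of Trp53 without Trp53-204, chosen after these values had been seen, gave 1.20 (padj = 0.0301) in the VEH arm and 0.77 (padj = 0.104) in the TIA arm.

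The regular and the alternatively spliced form were higher by about the same factor. Trp53-201 and Trp53-203 together had 13.3, 10.9, 15.9 and 13.2 FPKM in CONTROL-VEH and 21.4, 32.6, 32.3 and 43.0 FPKM in OGD-VEH. They had 14.9, 11.2, 14.6 and 11.9 FPKM in CONTROL-TIA and 23.3, 20.3, 21.1 and 28.8 FPKM in OGD-TIA. In both arms the OGD cultures lay wholly above the controls, with means going from 13.3 ± 2.05 to 32.3 ± 8.86 FPKM (± SD, n = 4) in the VEH arm and from 13.1 ± 1.90 to 23.4 ± 3.83 FPKM in the TIA arm (ratios 2.42 and 1.78). Trp53-202 and Trp53-206 together had 4.82, 5.86, 4.25 and 5.14 FPKM in CONTROL-VEH, 9.27, 10.8, 13.1 and 15.5 in OGD-VEH, 7.05, 5.30, 5.15 and 5.40 in CONTROL-TIA and 7.28, 8.61, 8.45 and 12.7 in OGD-TIA. Again the groups did not overlap in either arm, and the means went from 5.02 ± 0.669 to 12.2 ± 2.73 FPKM and from 5.72 ± 0.888 to 9.26 ± 2.38 FPKM (ratios 2.43 and 1.62). The alternatively spliced form accordingly held 27.6 ± 5.70% of the coding sum in CONTROL-VEH, 30.4 ± 2.92% in CONTROL-TIA, 27.7 ± 2.36% in OGD-VEH and 28.2 ± 3.02% in OGD-TIA. These pairings were made with the values in view and carry no test. Trp53-205, the long noncoding form, was low throughout, at 1.93, 1.97, 1.43 and 1.51 FPKM in CONTROL-VEH, 1.54, 3.93, 2.95 and 2.79 in OGD-VEH, 1.30, 1.66, 1.11 and 1.43 in CONTROL-TIA and 1.89, 1.76, 2.26 and 2.24 in OGD-TIA. OGD-VEH 9 lay inside the control range for this isoform, and the TIA arm groups were apart.

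**Figure D2:**
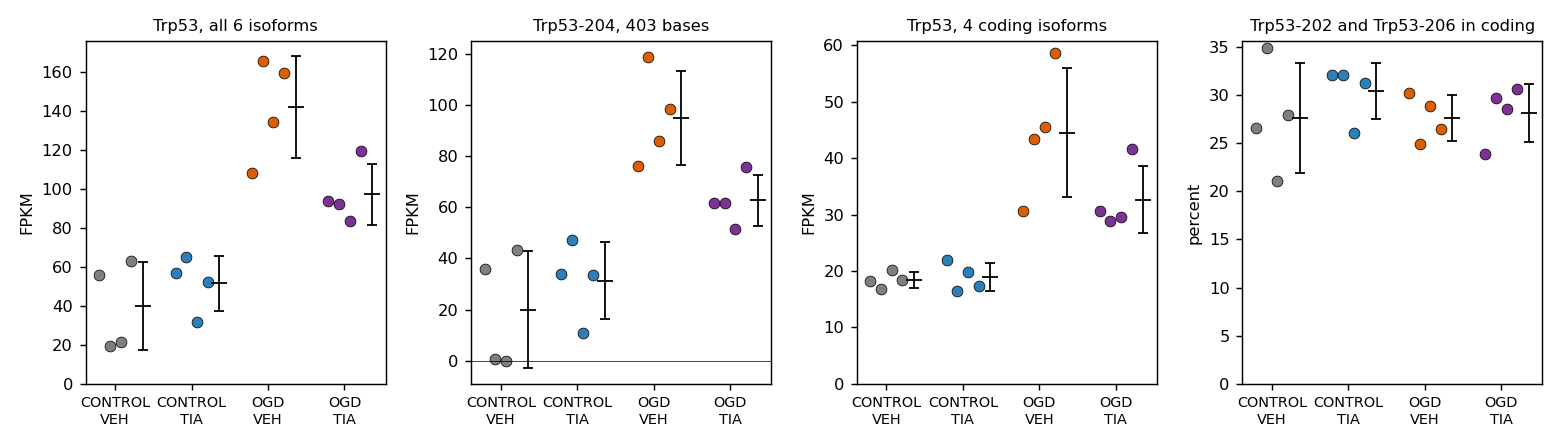
Level in FPKM of all Trp53 isoforms, of Trp53-204 and of the 4 coding isoforms, and percent of the coding sum held by Trp53-202 and Trp53-206, in each of the 16 cultures, with points for cultures and bars for the group mean ± SD. The coding sum is 16.5 to 21.96 FPKM in the 8 control cultures and 28.9 to 58.6 FPKM in the 8 OGD cultures, whereas Trp53-204 is near 0 in CONTROL-VEH 2 and 3.

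Isoform by isoform, no member passed at padj ≤ 0.05 within 1 arm. Tested with limma were 22 member isoforms in the VEH arm, where 0.0772% of all 53087 isoforms passed in the upward direction, and 20 in the TIA arm, where 0.0152% of 52476 did. At an unadjusted p under 0.05, 7 of 22 members (5 of Trp53, 2 of Mdm2) were higher after OGD in the VEH arm against 10.6% of all isoforms, and 7 of 20 in the TIA arm against 6.03%. The cultures of the groups were fully apart, with OGD above, for 6 of 22 member isoforms in the VEH arm (5 of Trp53) against 7.57% of all isoforms, and for 8 of 20 in the TIA arm (all 6 of Trp53, and Mdm2-207 and Mdm2-209) against 5.27%. For the coding Trp53 isoforms the log2 fold changes were 1.03 to 1.28 in the VEH arm (padj 0.0919 to 0.138) and 0.53 to 0.83 in the TIA arm (padj 0.324 to 0.496). These isoforms divide shared reads among them, so the counts of members are not counts of independent results.

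With all 16 cultures in a fit of OGD against CONTROL over both arms, 5 of 20 member isoforms rose and none fell, where 4.95% of all isoforms rose. They were Trp53-201 (1.02 on the log2 scale, padj = 0.00503), Trp53-203 (1.03, padj = 0.00503), Trp53-202 (0.99, padj = 0.00656), Trp53-206 (0.78, padj = 0.0154) and Mdm2-209 (1.61, padj = 0.0423). The 4 Trp53 calls held on leaving out any 1 of the 16 cultures. The call of Mdm2-209 was lost on leaving out 10 of the 16, with log2 fold changes of 1.24 to 1.86 and padj up to 0.0873. Trp53-205 (0.58, padj = 0.0519) and Trp53-204 (2.93 ± 1.07 SE, padj = 0.104) did not pass.

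No isoform's share of its gene passed the test. Over 100 exact two-sided permutation tests of shares of the 20 isoforms, none passed after adjustment. The smallest adjusted p was 0.245, for Trp53-205, whose share was 4.199% in the control cultures and 2.03% in the OGD cultures over both arms.

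At the level of whole genes, Trp53 and Mdm2 rose in the VEH arm and Mdm4 did not pass (limma on log2 of the summed FPKM + 0.1). The log2 fold change from CONTROL-VEH to OGD-VEH was 2.0 ± 0.40 (SE) for Trp53 (padj = 0.0347; 95% interval 1.09 to 2.91), 0.82 ± 0.20 for Mdm2 (padj = 0.0447; 0.37 to 1.27) and −0.16 ± 0.17 for Mdm4 (padj = 0.508; −0.54 to 0.22). Of all 16372 genes tested, 5.00% rose and 3.44% fell at this threshold, the median gene stood at 0.10, and 2.40% were upregulated DEGs with a log2 fold change of at least 1. Trp53 was a DEG by that rule and Mdm2 was not. Both calls were close to the threshold: without CONTROL-VEH 1, 2, 3 or 4 the padj of Trp53 was 0.0676, 0.0947, 0.0868 and 0.0614 and that of Mdm2 0.0895, 0.113, 0.106 and 0.0774. Without OGD-VEH 10, 11 or 12 it was 0.107, 0.0942 and 0.0676 for Trp53 and 0.122, 0.113 and 0.0828 for Mdm2, and only without OGD-VEH 9 did it drop, to 0.0127 and 0.00255. With CONTROL-VEH 2 and 3 both left out, which was chosen after seeing Trp53-204, the Trp53 fold change was 1.24 (padj = 0.241) and that of Mdm2 0.74 (padj = 0.257).

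Over both arms the calls were firmer. OGD against CONTROL gave 1.48 ± 0.27 for Trp53 (padj = 0.00258; 95% interval 0.90 to 2.05), 0.60 ± 0.13 for Mdm2 (padj = 0.0051; 0.32 to 0.88) and −0.13 ± 0.12 for Mdm4 (padj = 0.434; −0.39 to 0.13), where 18.7% of all 16339 genes rose and 13.4% fell. The Trp53 and Mdm2 calls held on leaving out any 1 of the 16 cultures (1.31 to 1.58 and 0.54 to 0.68). Without OGD-VEH 12 and OGD-TIA 16, the cultures that stood apart, the values were 1.39 (padj = 0.0102) and 0.56 (padj = 0.0201), and without CONTROL-VEH 2 and 3 they were 1.07 (padj = 0.00783) and 0.53 (padj = 0.0324). Among the OGD-VEH cultures, number 12 had the lowest neuronal marker sum (1317 FPKM) and the highest Trp53 coding sum, and number 9 the highest marker sum (2720 FPKM) and the lowest Trp53 coding sum. In OGD-TIA, culture 16 had likewise the lowest marker sum (1823 FPKM) and the highest Trp53 coding sum. There the highest marker sum was that of culture 15 (3034 FPKM), but the lowest coding sum that of culture 14 (28.9 FPKM). The Mdm2 sum was lowest in culture 9 of OGD-VEH (37.4 FPKM) and highest in culture 10 (69.4 FPKM), with 58.0 FPKM in culture 12. In OGD-TIA it was highest in culture 16 (51.5 FPKM). The part of cell composition in the Trp53 and Mdm2 values was not tested.

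Mdm2 was higher after OGD in the VEH arm, and which isoforms carried this depends on how shared reads were divided. The sum over isoforms was 34.8, 31.2, 29.4 and 33.0 FPKM in CONTROL-VEH and 37.4, 69.4, 67.9 and 58.0 FPKM in OGD-VEH, so that all OGD cultures lay above the controls, culture 9 only just. The same held for 2089 of all 16372 genes tested in this arm. In the TIA arm the Mdm2 ranges are given next. The Mdm2 sum was 32.9, 30.7, 31.8 and 40.5 FPKM in CONTROL-TIA and 45.3, 36.003, 45.9 and 51.5 FPKM in OGD-TIA, where the ranges overlapped. The group means were 32.1 ± 2.35 and 58.2 ± 14.7 FPKM (± SD, n = 4) in the VEH arm before and after OGD, and 34.0 ± 4.45 and 44.7 ± 6.40 FPKM in the TIA arm.

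The 2 coding isoforms overlapped in both arms. Together they had 2.05, 6.11, 10.9 and 9.54 FPKM in CONTROL-VEH and 4.13, 4.06, 10.7 and 10.8 in OGD-VEH. In the TIA arm they had 7.17, 5.37, 4.66 and 7.13 FPKM in CONTROL-TIA and 3.89, 7.49, 3.52 and 9.85 in OGD-TIA. Low and high cultures occurred in each group, with means of 7.15 ± 3.96 and 7.41 ± 3.82 FPKM (± SD) in the VEH arm without and with OGD, and 6.08 ± 1.27 and 6.19 ± 3.03 FPKM in the TIA arm. When only protein-coding isoforms of each gene were summed, the Mdm2 log2 fold change was 0.14 (limma, padj = 0.875) in the VEH arm, −0.08 (padj = 0.902) in the TIA arm and 0.03 (padj = 0.956) over both, so the Mdm2 call was lost. The coding level was uneven among control cultures: it was 2.05 FPKM in CONTROL-VEH 1, where Mdm2-209 had 11.7 FPKM, and 10.9 FPKM in CONTROL-VEH 3, where Mdm2-209 had 0.610 FPKM.

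Mdm2-209, the decay-annotated form, had means of 4.76 ± 4.91 FPKM in CONTROL-VEH, 15.1 ± 4.93 in OGD-VEH, 5.77 ± 1.60 in CONTROL-TIA and 10.95 ± 1.34 in OGD-TIA. It had 11.7, 4.72, 0.610 and 2.05 FPKM in CONTROL-VEH and 11.3, 22.4, 12.98 and 13.9 FPKM in OGD-VEH, where 3 of the 4 OGD cultures lay above all controls. In the TIA arm, without overlap, it had 5.35, 7.20, 6.83 and 3.69 FPKM in CONTROL-TIA and 11.3, 9.37, 12.6 and 10.5 FPKM in OGD-TIA. Since Mdm2-209 and the coding isoforms differ by few stretches, their sum is less dependent on how reads were divided. Together Mdm2-201, 202 and 209 had 13.7, 10.8, 11.5 and 11.6 FPKM in CONTROL-VEH and 15.5, 26.4, 23.6 and 24.6 FPKM in OGD-VEH. They had 12.5, 12.6, 11.5 and 10.8 FPKM in CONTROL-TIA and 15.2, 16.9, 16.1 and 20.4 FPKM in OGD-TIA. In this sum, formed after the values were seen and not tested, the spread of the controls shrank, and each OGD culture lay above each control culture in both arms (ratios of means 1.89 and 1.45). Mdm2-209 held 37.9 ± 35.3% of it in CONTROL-VEH, 67.3 ± 14.3% in OGD-VEH, 48.4 ± 12.1% in CONTROL-TIA and 64.9 ± 13.2% in OGD-TIA, so that its share ranged from 5.29 to 85.1% among the CONTROL-VEH cultures alone.

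Isoforms were also summed by start site. Those that begin in intron 1 or exon 2 had 20.2, 15.5, 8.11 and 15.1 FPKM in CONTROL-VEH and 19.4, 52.3, 39.9 and 32.9 FPKM in OGD-VEH, with OGD-VEH 9 inside the control range, and 15.0, 16.3, 15.5 and 16.005 FPKM in CONTROL-TIA against 30.1, 20.01, 31.3 and 26.1 FPKM in OGD-TIA, with no overlap. The ratios of means were 2.46 and 1.71. Isoforms that begin in exon 1 had group means of 10.6 ± 2.08 FPKM in CONTROL-VEH, 13.1 ± 4.32 in OGD-VEH, 10.5 ± 4.22 in CONTROL-TIA and 9.91 ± 2.40 in OGD-TIA. The grouping by start site was made after seeing the values and was not tested, and 307 of the 3180 stretches of the second set (9.65%) and 1825 of the 4698 of the first (38.8%) belong to that set alone.

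**Figure D3:**
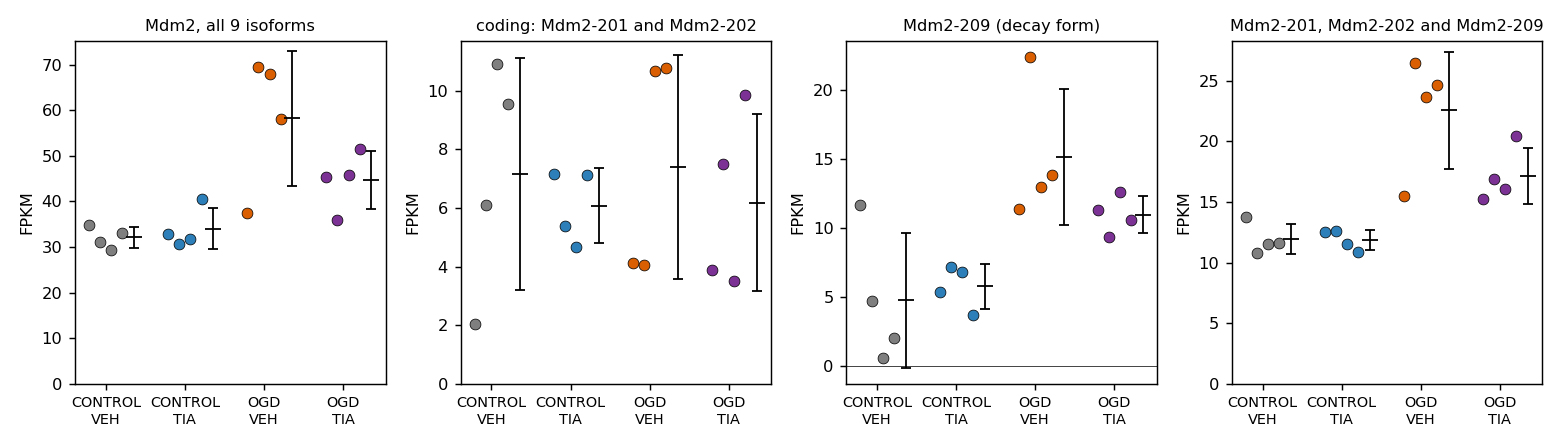
Level in FPKM of all Mdm2 isoforms, of the 2 coding isoforms, of Mdm2-209 and of Mdm2-201, 202 and 209 together in the 16 cultures, with points for cultures and bars for the group mean ± SD. The sum of Mdm2-201, 202 and 209 is 10.8 to 13.7 FPKM in the 8 control cultures and 15.2 to 26.4 FPKM in the 8 OGD cultures, while the 2 coding isoforms overlap in all groups.

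Single Mdm2 isoforms were uneven. Mdm2-206, which starts inside the second pair of half-sites, had 6.00, 10.4, 6.95 and 9.85 FPKM in CONTROL-VEH and 6.31, 27.5, 20.5 and 18.7 FPKM in OGD-VEH. In OGD-TIA it had 13.8, 0.891, 14.1 and 7.83 FPKM, and in CONTROL-TIA 7.12 to 9.40 FPKM. Mdm2-207, the form that carries the printed end of intron 1 and has 214 stretches of its own, was at 0 to 3.397 FPKM in the 8 control cultures. It had 1.77, 2.48, 6.44 and 0.338 FPKM in OGD-VEH and 5.00, 9.75, 4.63 and 7.74 in OGD-TIA. It was above all CONTROL-TIA cultures in OGD-TIA (log2 fold change 3.18 ± 1.08 SE, limma, padj = 0.425), and did not pass. Mdm2-205, which starts in exon 1 and retains introns, was 1.34 FPKM on average in CONTROL-VEH and 2.55 in OGD-VEH (log2 fold change 0.90, limma, padj = 0.198), without overlap, at 1.75, 1.67, 0.870 and 1.05 against 1.87, 2.91, 2.14 and 3.28 FPKM. Mdm2-204 (5.69 to 12.1 FPKM over the 16 cultures) and Mdm2-208 (0.373 to 8.29 FPKM) overlapped in both arms.

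Mdm4 was expressed at a like level in all groups. Mdm4-210, the full-length coding isoform, had 23.6, 22.4, 20.9 and 24.0 FPKM in CONTROL-VEH, 22.4, 23.9, 23.9 and 22.5 in CONTROL-TIA, 21.3, 23.9, 23.4 and 24.2 in OGD-VEH and 20.3, 22.2, 22.3 and 24.9 in OGD-TIA. Its coefficient of variation over the 16 cultures was 5.73%, and OGD against CONTROL over both arms gave −0.01 ± 0.06 (SE) on the log2 scale (limma, padj = 0.94). The sum over isoforms spread more, from 38.4 to 70.9 FPKM (coefficient of variation 16.9%), with means of 60.0 ± 9.92 FPKM (± SD, n = 4) in CONTROL-VEH and 55.5 ± 2.59 in CONTROL-TIA, and of 53.5 ± 9.08 and 53.2 ± 14.6 FPKM after OGD without and with TIA.

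That spread lay in short isoforms. Mdm4-209 had 6.17, 18.6, 0.0130 and 9.08 FPKM in CONTROL-VEH, 5.95, 10.1, 0 and 9.28 in CONTROL-TIA, 9.02, 10.1, 6.21 and 0 in OGD-VEH and 6.11, 11.2, 4.88 and 14.5 in OGD-TIA, so that a culture at or near 0 stood beside cultures near 10.1 FPKM in 3 of the 4 groups. Mdm4-213, the coding fragment, was under 0.05 FPKM in 9 of the 16 cultures and reached 12.8 FPKM in OGD-VEH 10 and 10.1 FPKM in CONTROL-VEH 2. Mdm4-204 ranged from 0.628 to 12.7 FPKM, Mdm4-211 from 5.42 to 19.6 and Mdm4-205 from 1.11 to 2.26, and all of these overlapped between OGD and control cultures in both arms. The 8 isoforms of Mdm4 under the level of 0.5 FPKM reached at most 3.13 FPKM in any culture (Mdm4-212 in CONTROL-TIA 6). Weighted by isoform length, which gives short isoforms less say, Mdm4 varied by 7.14%. Mdm4-214, the form without the 68-base exon, was at 0.117 to 1.48 FPKM, which was 0.493 to 5.75% of Mdm4-214 and Mdm4-210 together, with overlap in both arms. Its mean share was 1.41 ± 1.17% in CONTROL-VEH, 2.83 ± 2.03% in OGD-VEH, 2.11 ± 1.13% in CONTROL-TIA and 1.42 ± 0.925% in OGD-TIA. The highest value, 1.48 FPKM, was that of OGD-VEH 12.

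**Figure D4:**
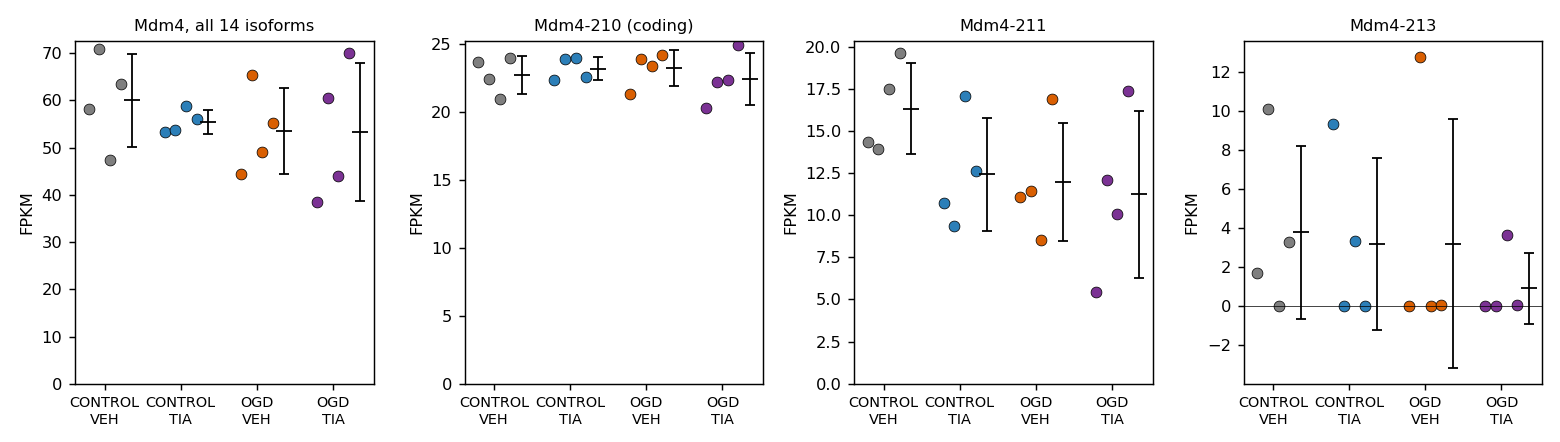
Level in FPKM of all Mdm4 isoforms and of Mdm4-210, Mdm4-211 and Mdm4-213 in the 16 cultures, with points for cultures and bars for the group mean ± SD. Mdm4-210 stays between 20.3 and 24.9 FPKM in all cultures, Mdm4-211 and Mdm4-213 scatter within groups.

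Trp53 and its partner genes were compared as ratios of the sums over all isoforms, coding or not, within a culture. Exact two-sided permutation tests were adjusted over 15 tests, and with 4 cultures against 4 the smallest possible p is 0.0286. The noncoding Trp53-204 held on average 55.7% of the Trp53 sum over the 16 cultures, and the coding isoforms 16.9% of the Mdm2 sum. The ratios are therefore not ratios of coding transcripts. The log2 ratio of Mdm2 to Trp53 was −0.13 ± 0.80 (SD) in CONTROL-VEH, −1.31 ± 0.25 in OGD-VEH, −0.56 ± 0.48 in CONTROL-TIA and −1.12 ± 0.21 in OGD-TIA. Mdm2 was thus lower against Trp53 after OGD, by −1.18 in the VEH arm (exact p = 0.0286, adjusted 0.0612), −0.56 in the TIA arm (p = 0.0857, adjusted 0.143) and −0.87 over both arms with labels permuted within each (exact p = 0.00163, adjusted 0.00816). The log2 ratio of Mdm4 to Trp53 was 0.76 ± 0.89, −1.40 ± 0.11, 0.15 ± 0.52 and −0.90 ± 0.29 in the same order. It was lower in each OGD culture than in each control culture of its arm, by −2.16 and −1.05 (exact p = 0.0286, adjusted 0.0612 each), and by −1.61 over both (exact p = 0.000408, the smallest possible, adjusted 0.00612). In the 4 CONTROL-VEH cultures this ratio was 0.06, 1.86, 1.12 and 0.01, where Trp53-204 held 64.1, 3.95, 0.116 and 68.5% of the Trp53 sum. The higher control ratios in this arm were thus those of the cultures with little Trp53-204.

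Between the partners, Mdm2 was higher against Mdm4 after OGD. The log2 ratio of Mdm2 to Mdm4 was −0.89 ± 0.23 in CONTROL-VEH, 0.09 ± 0.29 in OGD-VEH, −0.71 ± 0.18 in CONTROL-TIA and −0.22 ± 0.45 in OGD-TIA. The difference was 0.98 in the VEH arm (exact p = 0.0286, adjusted 0.0612), 0.49 in the TIA arm (exact p = 0.114, adjusted 0.171) and 0.73 over both (exact p = 0.00163, adjusted 0.00816). With protein-coding isoforms only, the differences over both arms in Mdm2 to Trp53 (−0.98, exact p adjusted 0.098) and Mdm2 to Mdm4 (0.12, adjusted 0.989) no longer passed.

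TIA by itself did not move the 3 genes past the test. From CONTROL-VEH to CONTROL-TIA the log2 fold changes were 0.51 ± 0.43 (SE) for Trp53, 0.08 ± 0.11 for Mdm2 and −0.10 ± 0.12 for Mdm4 (limma, padj = 0.999 each). In this comparison 0.00% of 16192 genes rose at padj ≤ 0.05, and 622 had an unadjusted p under 0.05. The 95% interval of Trp53 ran from −0.48 to 1.50, and with CONTROL-VEH 2 and 3, the cultures with little Trp53-204, left out the value was −0.25.

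After OGD, Trp53 was lower in TIA-pretreated than in vehicle cultures without passing. The log2 fold change from OGD-VEH to OGD-TIA was −0.54 ± 0.17 for Trp53 (limma, padj = 0.551; 95% interval −0.92 to −0.16), −0.35 ± 0.21 for Mdm2 (padj = 0.552; −0.84 to 0.13) and −0.03 ± 0.21 for Mdm4 (padj = 0.946; −0.52 to 0.45). Here 0.00% of 16377 genes fell at padj ≤ 0.05, and 1293 had an unadjusted p under 0.05. Trp53-204 was lower in each OGD-TIA culture (51.6 to 75.9 FPKM) than in each OGD-VEH culture (76.2 to 119 FPKM), at −0.59 ± 0.17 (SE, limma, padj = 0.724). It was 1 of 21 member isoforms tested here to lie fully apart downward, as did 1147 of all 52945 isoforms. The Trp53 coding sums overlapped. With array quality weights, which give less say to the cultures that lie farthest from their group, the values were −0.67 (padj = 0.0456) for Trp53 and −0.63 (padj = 0.0486) for Mdm2. Many other genes passed with these weights too, and their number of DEGs is given below, so the calls were not particular to Trp53 and Mdm2.

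Within the TIA arm, OGD against control gave 0.95 ± 0.22 for Trp53 (limma, padj = 0.121; 95% interval 0.44 to 1.46), 0.39 ± 0.14 for Mdm2 (padj = 0.195; 0.08 to 0.70) and −0.10 ± 0.18 for Mdm4 (padj = 0.789). Again 0.00% of 16267 genes rose at padj ≤ 0.05, while 3177 had an unadjusted p under 0.05. Weighted by isoform length, Trp53 passed at 0.82 (padj = 0.0426). Whether OGD acted differently in the TIA arm was tested as an interaction, which gave −1.05 ± 0.49 for Trp53 (limma, padj = 0.723; 95% interval −2.09 to −0.0037), −0.43 ± 0.25 for Mdm2 (padj = 0.723) and 0.06 ± 0.25 for Mdm4 (padj = 0.946). In that test 0.00% of genes passed in the negative direction, and 990 had an unadjusted p under 0.05. Without Trp53-204 the Trp53 interaction was −0.43 (padj = 0.723). A smaller OGD response of Trp53 under TIA was therefore not shown by these tests, and the interval reaches down to −2.09.

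**Figure D5:**
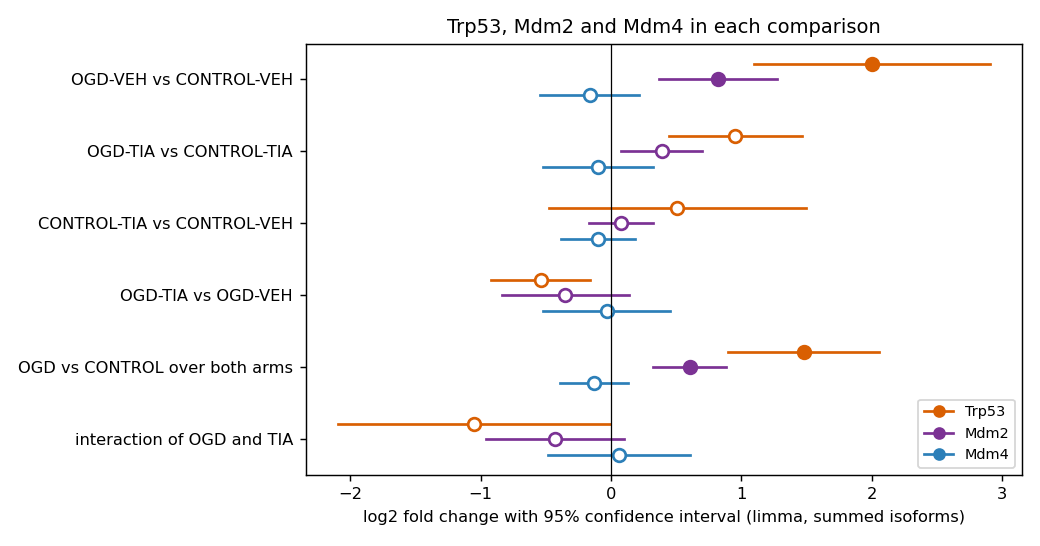
Log2 fold change of the summed isoforms of Trp53, Mdm2 and Mdm4 on the x axis for each of the 6 comparisons, with bars for the 95% confidence interval and filled points where padj ≤ 0.05. Trp53 and Mdm2 are filled in the VEH arm and over both arms, and the Mdm4 intervals include 0 in every comparison.

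Other regulators of p53 were read from a list of 75 genes written from general knowledge, but with earlier results of these data known. Its counts are therefore a description and not an independent test. Of 73 tested in the VEH arm, 6 rose and 2 fell (limma, padj ≤ 0.05), with a median log2 fold change of 0.25 against 0.10 over all genes, where 5.00% rose. Over both arms 22 of 73 rose and 7 fell (median 0.18), where 18.7% of all genes rose and 13.4% fell. The list group of MDM inhibitors and ribosomal stress genes, whose members need not all restrain MDM2, gave 3 of 14 in the VEH arm and 7 of 14 over both. Rps27l, a p53-induced ribosomal protein paralog that binds MDM2, rose from 137 ± 26.4 to 308 ± 83.2 FPKM (1.15, padj = 0.0372), Rpl23, a ribosomal protein that inhibits MDM2, rose from 414 ± 50.2 to 612 ± 49.5 FPKM (0.57, padj = 0.0336), and Gnl3 (nucleostemin, an MDM2-binding nucleolar protein), named after its value was seen, rose by 0.63 (padj = 0.0477).

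The counts of the other regulator groups in the VEH arm stand beside 5.00% of all genes that rose and 3.44% that fell. Among 18 ubiquitin ligases and deubiquitinases only Rchy1, whose product Pirh2 is another p53 ligase and p53 target, passed, from 32.3 ± 3.44 to 46.8 ± 5.64 FPKM (0.53, padj = 0.0459). Usp7, the deubiquitinase of p53 and MDM2, stood at 104 ± 6.15 and 96.9 ± 14.6 FPKM (padj = 0.56). Of 20 kinases and phosphatases, Plk1, a mitotic kinase, rose (1.10, padj = 0.0466), and 2 fell: Dyrk2, a kinase that phosphorylates p53, by 1.27 (padj = 0.0335) and Cdk5r1, the neuronal activator of the p53 kinase CDK5, by 0.73 (padj = 0.0357). Ppm1d, the p53-induced phosphatase Wip1, missed the threshold in the VEH arm (0.56, padj = 0.0519) and rose over both (0.49, padj = 0.00199). Of 21 cofactors tested, the acetyltransferase gene Kat2b, also named after its value was seen, rose (2.05, padj = 0.0487). Cdkn2a, which encodes the MDM2 inhibitor p19ARF beside p16, was at 1.09 ± 0.424 and 2.18 ± 0.846 FPKM (padj = 0.132). Trp63 and Trp73, the p53 relatives, did not reach the filter, and Wrap53, which overlaps the 5′ end of Trp53 on the other strand, had 6.51 ± 1.06 and 7.70 ± 2.12 FPKM (padj = 0.496).

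p53 targets were read from a second list of 51 genes beside Mdm2, also chosen with earlier results of these data known, so its counts are likewise a description. Of 50 tested in the VEH arm 16 rose and none fell, with a median of 0.57, where 5.00% of all genes rose. Over both arms 22 of 49 rose and none fell, with a median of 0.46 against 0.08 over all genes, of which 18.7% rose. Genes listed under arrest and growth gave 8 of 14, genes of apoptosis 6 of 23 and genes of repair and metabolism 2 of 13 in the VEH arm. Pidd1, a death domain protein, went from 3.58 ± 0.294 to 15.7 ± 3.87 FPKM (2.07, padj = 0.0143). Fas and Tnfrsf10b, both death receptors, rose by 2.90 and 2.32 (padj = 0.0334 each), and Phlda3, an inhibitor of AKT signalling, by 2.06 (padj = 0.0334). Under arrest and growth, Gtse1 (1.94) and Ckap2 (1.75, padj = 0.034 each), Ccng1 (1.50, padj = 0.0394) and Cdkn1a, the p21 cell cycle inhibitor (0.94, padj = 0.0456), rose as well. Gtse1, Ckap2 and, among the regulators, Plk1 are also genes of dividing cells, and markers of dividing cells were higher after OGD: Mki67 had means of 4.07 FPKM in CONTROL-VEH and 9.50 in OGD-VEH, and Top2a 20.8 and 42.0 FPKM. Their part in the list counts was not tested. Bax missed the threshold (0.60, padj = 0.0515), and Bbc3 (Puma) stood at 0.54 (padj = 0.457).

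In the TIA arm no gene of either list passed. At an unadjusted p under 0.05, 22 of 49 targets and 14 of 73 regulators were higher after OGD there, against 11.6% of all genes. None passed from OGD-VEH to OGD-TIA, where 6 of 51 targets were lower at that level against 5.03% of all genes, and 1 was higher against 2.86%. None passed from CONTROL-VEH to CONTROL-TIA either, where no target and 3 of 74 regulators were higher at that level against 1.81% of all genes. The list counts in the VEH arm shared the fragility of the members' calls. Without any 1 of CONTROL-VEH 1 to 4, OGD-VEH 10, 11 or 12, at most 1 target and no regulator rose, while between 1 and 55 of all genes did, and without OGD-VEH 9 it was 24 targets and 27 regulators, with 2935 of all genes (17.9%). Over both arms the counts of genes that rose were 20 targets and 15 regulators without OGD-VEH 12 and OGD-TIA 16, with 1925 of all genes (11.8%), and 21 and 12 without CONTROL-VEH 2 and 3, with 1496 of all genes (9.13%).

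Finally, the genes whose level followed each member most closely over the 16 cultures were taken from 11668 genes as a description. The cultures share their group, so such correlations carry the group differences. For Trp53 they were Rtkn (Pearson r 0.95), Rps16 (0.912) and Imp4 (0.91), for Mdm2 they were Asxl2 (0.947), Prkaa1 (0.943) and Etv3 (0.938), and for Mdm4 Zfp445 (0.766), Ash1l (0.751) and Tet1 (0.729). Trp53 and Mdm2 had an r of 0.807 with each other, which placed Mdm2 at rank 288 for Trp53. Mdm4 had an r of −0.135 with Trp53 and −0.04 with Mdm2.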

How the data were processed

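RNA was measured in 16 cultures, 4 per group, by stranded mRNA sequencing with single-end reads of 50 bases. According to the authors' methods, reads were aligned to GRCm38 with STAR, isoform levels of Ensembl release 92 were estimated with eXpress, and the deposited table holds FPKM values scaled between samples by the TMM method. The versions of these tools are not given in the sources used here. FastQC and DESeq2 are also named in the submitters' processing notes, but no counts were used here.

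The table had 135276 lines, of which 74 without identifier were left out. Isoform FPKM were summed per gene, by GENCODE gene identifier where the isoform was found there and through the gene symbol otherwise. Features with a mean of at least 0.5 FPKM in the cultures compared were tested with limma 3.58.1 (R 4.3.3, trend) on log2(FPKM + 0.1), with Benjamini-Hochberg adjustment over all features, so fold changes of low features are understated. DEG means padj ≤ 0.05 with a log2 fold change ≥ 1 or ≤ −1. Each pairwise comparison was fitted on its 2 groups, and OGD against CONTROL over both arms and the interaction on all 16 cultures. p-values measure the spread between these cultures. Shares and ratios were tested by exact two-sided permutation (70 assignments of 4 against 4, or 4900 within both arms), adjusted over 100 and 15 tests. The limma step was tested on simulated data.

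eXpress divides reads that several isoforms share by estimation, which makes levels of isoforms with few stretches of their own imprecise. A summed FPKM gives short isoforms the same say as long ones, so sums weighted by length were an alternative. Stretches of 50 bases were read from GENCODE M21 transcripts (99.8% of the isoforms found), promoter windows from RefSeq. Alternatives covered the pseudocount, the filter, scaling, culture weights, coding isoforms only, length weighting, one fit of all cultures and leaving out cultures.

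The members, gene lists and tests were chosen with earlier results of these data known. Named were all members, the 6 genes of each list with the smallest unadjusted p in the VEH arm, Usp7, Cdkn2a, Ppm1d, Trp63, Trp73, Wrap53, Cdkn1a, Bbc3, Bax and Ccng1 whatever they did, and the 3 protein-coding genes most alike to each member; isoforms meant to be given culture by culture are in part given by range or as pairs. Permutation tests went through all assignments in Python 3.11.15 with numpy 2.4.6.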

Additional observations from a re-analysis of the deposited data

Results flagged for a closer look

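In groups of 4 cultures, a value was singled out when its gap to the nearest of the others took more of the group's range than Dixon's 95% limit allows. This occurred in 6 of 104 combinations of item and group, where chance gives about 5.2 (1 in 20). CONTROL-TIA 5 was highest for Trp53-202 with 5.67 FPKM, the other cultures of its group having 4.05 to 4.30 FPKM, and for Trp53-206 with 1.38 FPKM. OGD-TIA 16 was highest for Mdm2-204 with 11.96 FPKM (others 6.28 to 6.91 FPKM) and for Mdm4-205 with 2.03 FPKM (others 1.43 to 1.49 FPKM). Mdm4-213 stood at 12.8 FPKM in OGD-VEH 10 and at 3.65 FPKM in OGD-TIA 15, the other cultures of these groups having at most 0.0400 FPKM.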

How the results depend on the processing

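Over both arms, the Trp53 and Mdm2 calls held under all alternatives run except Mdm2 from protein-coding isoforms only (0.027, limma, padj = 0.956). In the VEH arm the calls were lost with no filter on low values (Trp53 2.0, padj = 0.0729; Mdm2 0.82, padj = 0.088), with CONTROL-VEH 2 and 3 left out, chosen after seeing the data (1.24 and 0.74), and for Mdm2 with coding isoforms only (0.14). Leaving out 1 culture gave 1.72 to 2.28 for Trp53 and 0.72 to 1.02 for Mdm2, and each call was lost in 7 of 8 cases, the exception being OGD-VEH 9. Trp53 in the TIA arm passed when weighted by length (0.82), and from OGD-VEH to OGD-TIA Trp53 and Mdm2 passed with array quality weights (−0.67 and −0.63). The cause of these changes was not tested. Among 1294 isoform results under alternatives, 11 calls were lost and 6 gained.

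The number of DEGs in the VEH arm was 668, and 36 with no filter, 1929 with array weights, 1123 weighted by length, 1393 with all 16 cultures in one fit, 0 without CONTROL-VEH 2 and 3, and 1 to 2188 on leaving out 1 culture. Over both arms it was 779, and 393 with a pseudocount of 1, 493 without CONTROL-VEH 2 and 3, 380 without OGD-VEH 12 and OGD-TIA 16, and 525 to 1059 on leaving out 1 culture. The counts of 0 became, with no filter, 7 in the TIA arm, 4 for CONTROL-TIA against CONTROL-VEH, 4 for OGD-TIA against OGD-VEH and 3 for the interaction; with array weights 80 in the TIA arm and 406 for OGD-TIA against OGD-VEH; weighted by length 72 in the TIA arm; with coding isoforms only 1 in the TIA arm and 1 for the interaction; in one fit 1 in the TIA arm. Leaving out 1 culture gave 0 to 17 in the TIA arm, 0 to 2 for OGD-TIA against OGD-VEH and 0 to 1 for the interaction.

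Values near 0 that had not passed changed sign. With coding isoforms only, Mdm2 was −0.081 in the TIA arm and −0.012 from CONTROL-VEH to CONTROL-TIA, the Mdm4 interaction −0.14, and Mdm2 to Mdm4 −0.0028 between controls. The Mdm4 interaction was −0.059 with array weights, −0.048 weighted by length and −0.061 without OGD-VEH 12 and OGD-TIA 16. Mdm4 was 0.00050 weighted by length between controls and 0.014 with median-ratio scaling from OGD-VEH to OGD-TIA. Without CONTROL-VEH 2 and 3, Trp53 was −0.25 and Mdm2 −0.0053 between controls. Leaving out 1 culture gave −0.010 to 0.12 for Mdm2 between controls, −0.24 to 0.044 for Mdm4 in the TIA arm, −0.18 to 0.11 for Mdm4 from OGD-VEH to OGD-TIA and −0.081 to 0.21 for the Mdm4 interaction. Weighted by length, the ratio differences within arms passed (exact permutation, adjusted p 0.0476 each): Mdm2 to Trp53 −0.62 and −0.41, Mdm4 to Trp53 −1.45 and −0.88, and Mdm2 to Mdm4 0.83 and 0.47 in the VEH and TIA arms. With coding isoforms only, Mdm2 to Trp53 (−0.98) and Mdm2 to Mdm4 (0.12) over both arms no longer passed. No share of an isoform passed under any alternative.

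The median gene stood at 0.10 in the VEH arm, and at 0.02 with median-ratio scaling. No paired analysis was made, because the labels number the cultures 1 to 16 across groups and give no pairing. Depth limits the isoforms under 0.5 FPKM, where few reads lie behind a value. It also limits some short isoforms above that level. At the highest depth the mean was about 28.0 reads for Mdm2-208, 36.2 for Mdm2-207 and 29.8 for Mdm4-213. For Mdm4-214, which lay under 0.5 FPKM, it was about 29.9.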

Other observations

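In CONTROL-VEH 3 several isoforms with few or no 50-base stretches of their own were near 0 together. Trp53-204 was at 0.0250 FPKM, Mdm2-209 at 0.610, Mdm4-209 at 0.0130 and Mdm4-213 at 0.0190 FPKM, each the lowest of its group; these isoforms were picked after their values were seen. The Trp53 coding sum (20.2 FPKM) and the Mdm2 coding sum (10.9 FPKM) of that culture were the highest of CONTROL-VEH, and Mdm4-210 (20.9 FPKM) the lowest.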
